A study of Rattus norvegicus with 24 samples.

Results

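The T cell receptor recognises peptides held by major histocompatibility molecules, but its antigen-binding chains have almost no intracellular part, and the signal is carried by the associated CD3 and zeta chains. The coreceptors CD4 and CD8 bind the same histocompatibility molecules and bring the kinase Lck to the complex, after which the kinase ZAP-70 docks on the phosphorylated CD3 and zeta chains and phosphorylates the adaptor LAT. In blood these genes are expressed mainly by T lymphocytes, although in the rat CD4 is also carried by monocytes and CD8 alpha by natural killer (NK) cells. The transcripts described here were those of Cd3d, Cd3e, Cd3g and Cd247 (the CD3 delta, epsilon and gamma chains and the zeta chain), Cd4, Cd8a and Cd8b (coreceptor chains), Cd5 (an inhibitory receptor of the T cell surface), Zap70 and Lat. They were chosen by gene name. Each of the 10 genes was found on the array, each with 1 probe, of 30367 probes in all.

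RNA came from whole blood of male Sprague-Dawley rats that were 8 weeks old, fed a semi-synthetic diet for 6 weeks. The diet was either unsupplemented (G0) or contained oat beta-glucan of high (G1) or low (G2) molecular weight. Rats received repeated injections through the tail vein of E. coli lipopolysaccharide (LPS, 10 mg/kg), a model of enteritis, or of saline (C). This gave 6 groups of 4 rats, C-G0, LPS-G0, C-G1, LPS-G1, C-G2 and LPS-G2, with 1 rat on each of 24 two-colour arrays against 1 common reference RNA. The arrays lay on 3 slides, each of which held arrays of all 6 groups. Each value below is a log2 ratio of the rat over the reference, so 0 is the level of the reference.

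The direction of these ratios depends on which dye carried the rat RNA. The sample labels put it in Cy3 and the reference in Cy5, whereas the study's methods state the opposite, and ratios are given here as Cy3 over Cy5. Over 7074 probes well above background in both dyes, the median SD between rats of a group (log2 scale) was 0.353 for Cy3 and 0.195 for Cy5, and 96.7% of these probes varied more in Cy3. Under the dyes given in the methods every sign below would turn. The characteristics of LPS-G0 replicates 3 and 4 call them controls although their titles call them LPS-challenged, and they were kept as LPS-G0. The number of probes that stood well above background in Cy3 ran from 7786 to 15385 per array. The C-G0 arrays correlated little with each other, with a mean r across probes of 0.04, 0.21, 0.23 and 0.0028 for replicates 1 to 4, against 0.32 to 0.48 among LPS-G0 arrays.

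Cd3d, Cd3e, Cd3g, Cd247, Cd8a, Cd8b, Lat and Zap70 were well above background on 24 of 24 arrays, Cd5 was on 22, and no member was saturated on any array. The probe for Cd4 was dim: it was well above background on 5 arrays, with a Cy3 signal of at most 88.2 units, and was not tested in any comparison. Its log2 ratios ranged from -1.83 to 0.44 over the arrays, and the arrays on which it was measured were C-G0 replicate 4, C-G1 replicates 1 and 4, C-G2 replicate 4 and LPS-G1 replicate 4. Thus 9 of 10 members entered the tests.

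The probes behind the values that differed most, and those for the receptor and adaptor whose probes cross an intron, are shown here 5′ to 3′ as the array annotation gives them, with their place in the rn4 genome. The Cd8b probe lies at chr4:104542505-104542564 (plus strand), the Cd3e probe at chr8:47950313-47950372 (minus strand). The Cd5 probe (chr1:213216483-213217309, minus strand) and the Lat probe (chr1:185450886-185453574, minus strand) are 60 bases long and match 827 and 2689 bases of the genome, so each joins exons across intron sequence.
Cd8b: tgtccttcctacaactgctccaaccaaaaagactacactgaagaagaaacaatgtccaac
Cd3e: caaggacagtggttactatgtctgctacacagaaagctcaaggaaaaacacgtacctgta
Cd5: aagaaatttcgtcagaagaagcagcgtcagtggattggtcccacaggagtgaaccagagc
Lat: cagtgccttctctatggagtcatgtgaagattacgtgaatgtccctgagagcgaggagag
The remaining probes were placed at chr8:47936669-47936728 (Cd3d), chr8:47924376-47924435 (Cd3g), chr13:81594638-81594697 (Cd247), chr4:160988512-160988571 (Cd4), chr4:104593483-104593542 (Cd8a) and chr9:35714961-35715020 (Zap70). The CD3 and the CD8 genes are clustered. The Cd3g, Cd3d and Cd3e probes fell within 26.0 kb of chromosome 8, and the Cd8b and Cd8a probes within 51.0 kb of chromosome 4. Whether the probes lie in coding sequence or UTR was not analysed here.

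LPS-G0 vs. C-G0 asked what LPS did to rats on the unsupplemented diet. Cd8b, the chain that marks the CD8 heterodimer of cytotoxic T cells, and Cd3e, the CD3 chain through which the complex is usually stained, had the lowest differences of the 9 members, while Cd8a, Cd3d, Cd3g and Cd247 had differences between -0.14 and 0.11. Neither passed the adjusted threshold. Cd8b had log2 ratios of 0.39, 0.80, 0.57 and 0.49 in C-G0 replicates 1 to 4 and of -0.17, 0.10, 0.17 and -0.21 in LPS-G0, so every C-G0 rat was above every LPS-G0 rat. The means were 0.56 ± 0.17 and -0.03 ± 0.19 (SD, n = 4 each). The difference was -0.59 ± 0.15 (SE, 95% interval -0.91 to -0.28), with an exact two-sided permutation p of 0.0286, the smallest that 4 against 4 arrays can give, and a limma adjusted p of 0.22. Fewer cells of a type and less RNA per cell cannot be told apart in whole blood.

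Cd3e had log2 ratios of 0.08, 0.95, 0.65 and 0.16 in C-G0 and of -0.27, 0.43, -0.20 and -0.55 in LPS-G0. These groups overlapped through LPS-G0 replicate 2. The difference was -0.61 ± 0.22 (SE, limma adjusted p = 0.24), with an exact permutation p of 0.0857. Without LPS-G0 replicates 3 and 4, the arrays with conflicting labels, the Cd3e difference was -0.38 and that of Cd8b -0.60. Within the 3 slides the Cd8b difference was -0.63, -0.41 and -0.70, and that of Cd3e was -0.43, -0.85 and -0.71. Slides 2 and 3 held a single array of each of these groups, so the differences there are between single rats. The other members did not keep 1 direction over the slides: the median of the 9 was 0.39, -0.24 and -0.70, with 7, 3 and 0 members above 0. Zap70 differed by 0.67, 0.20 and -0.76 and Cd247 by 0.60, -0.62 and -1.12.

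No member passed the adjusted threshold of 0.05 in LPS-G0 vs. C-G0, against 0.0097% of the 10313 probes tested (1 probe). At an unadjusted p under 0.05, Cd3e and Cd8b were the only members, against 15.2% of all probes, and Cd8b alone did not overlap between the groups, as did 5.03% of all probes. With 9 members tested, a count of 2 is no result about the members against that background. The median difference of the 9 members was -0.08, beside 0.03 over all probes tested. The calls depended on 1 array: without C-G0 replicate 1, Cd8b (-0.65, limma adjusted p = 0.017) and Cd3e (-0.73, adjusted p = 0.0498) both passed, as 1136 probes did in that fit. With other background correction (normexp and loess) the Cd8b difference shrank to -0.36.

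**Figure D1:**
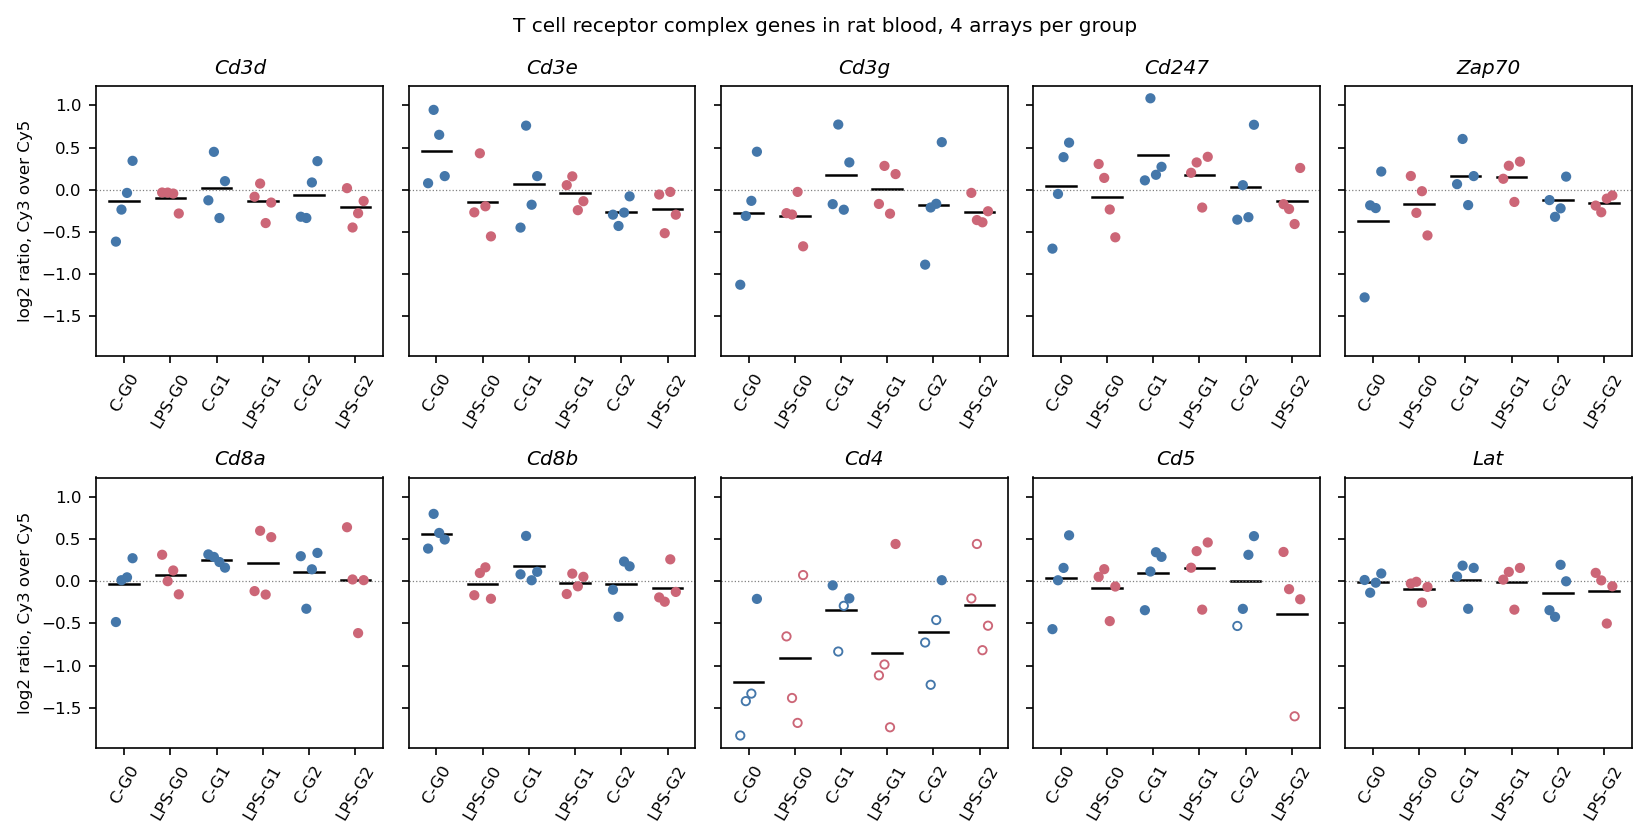
Log2 ratio (Cy3 over Cy5) of each gene in each of the 24 arrays by group, with blue points for saline, red points for LPS, black bars for group means and open points where the probe was not well above background. Cd8b in C-G0 lies between 0.39 and 0.80, above every LPS-G0 array, and most other genes overlap between all 6 groups.

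Some markers of other cells moved with this comparison. The NK and cytotoxic list (Ncr1, Klrd1, Prf1, granzymes and others) had a median difference of 0.87 over its 9 tested genes. Of these, 9 of 9 were above 0 and 8 had an unadjusted p under 0.05, beside 15.2% of all probes. None of these genes passed the adjusted threshold. Over all 10 genes of the NK list, untested ones included, the per-array median log2 ratio was -1.54, -0.02, -0.28 and -0.40 in C-G0 replicates 1 to 4. In LPS-G0 that median ran from -0.13 to 0.56. C-G0 replicate 1 thus stood apart, with 5 of the 10 genes well above background, and the list difference without it was not computed. The summed Cy3 signal of the NK list ran from 5364 to 11120 in C-G0 and from 9622 to 15690 in LPS-G0. The neutrophil list had a median difference of -0.55 over 5 tested genes. Over all 10 of its genes, the untested dim ones included, the per-array medians were -0.03 to 0.16 in C-G0 and -0.57 to -0.14 in LPS-G0. For B cells the difference was -0.18 (5 genes). The remaining medians were -0.21 for monocytes (7 genes), 0.04 for erythroid cells (9), -0.03 for platelets (9) and 0.23 for cell division (6). All lists were chosen with earlier results of these data known. The paper reports granzymes A, B, C and K as up-regulated in LPS-challenged rats, from arrays of the same groups. The NK count is therefore not an independent test. The part of the listed cells in the member differences was not tested.

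The other members were spread around 0 in LPS-G0 vs. C-G0. Cd3d, Cd3g and Cd247 had means of -0.14 ± 0.40, -0.28 ± 0.65 and 0.05 ± 0.56 in C-G0 (SD, n = 4), and the lowest of each was C-G0 replicate 1, where Cd3g was at -1.13, Cd3d at -0.61 and Cd247 at -0.70. The docking kinase Zap70 was at -1.28 in the same rat and between -0.22 and 0.22 in the other C-G0 rats. Cd8b (0.39), Cd3e (0.08), Cd8a (-0.48) and Cd5 (-0.57) were also lowest in C-G0 replicate 1 within C-G0, and Lat (0.02) was not. In LPS-G0 the means were -0.10 ± 0.12 (Cd3d), -0.32 ± 0.27 (Cd3g), -0.09 ± 0.39 (Cd247) and -0.17 ± 0.31 (Zap70). Lat, the membrane adaptor, had means of -0.01 ± 0.09 in C-G0 and -0.09 ± 0.11 in LPS-G0, with an interval of the difference of -0.40 to 0.25. The inhibitory receptor Cd5 had means of 0.04 ± 0.46 and -0.08 ± 0.27, with an interval of -0.83 to 0.58. For Cd8a the interval was -0.42 to 0.63, so a change as large as that of Cd8b lies inside it on the higher side only.

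Beta-glucan without LPS was addressed by C-G1 vs. C-G0 and C-G2 vs. C-G0, fitted on all 24 arrays. These comparisons and LPS-G0 vs. C-G0 share the 4 C-G0 arrays. With the low molecular weight preparation, Cd8b and Cd3e were again the members with the lowest values. Cd8b was -0.10, -0.42, 0.23 and 0.18 in C-G2, below every C-G0 array, a difference of -0.59 ± 0.16 (SE, limma adjusted p = 0.19). Cd3e was -0.29, -0.43, -0.27 and -0.08 in C-G2, also below every C-G0 array, a difference of -0.73 ± 0.24 (adjusted p = 0.23). The exact permutation p was 0.0286 for each.

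In C-G2 vs. C-G0 no member passed the adjusted threshold, against 0.028% of 10708 probes. Cd3e and Cd8b had an unadjusted p under 0.05, as did 13.3% of all probes, and both did not overlap, as did 2.62%. The other 7 tested members had differences from -0.13 (Lat) to 0.24 (Zap70), and the median of all 9 was -0.01, beside 0.02 over all probes. The NK list stood higher in C-G2 here too, with a median difference of 0.58 over 9 genes, 0 of them past the adjusted threshold, and its part was not tested. That value was taken against the same C-G0 arrays, with C-G0 replicate 1 at a per-array NK median of -1.54. With normexp and loess the Cd8b difference was -0.35.

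With the high molecular weight preparation, Cd8b was 0.08, 0.54, 0.01 and 0.11 in C-G1, and C-G1 replicate 2 lay inside the C-G0 range. The difference was -0.38 ± 0.16 (SE, adjusted p = 0.15). Zap70 went the other way, with 0.07, 0.60, -0.18 and 0.16 in C-G1 against -1.28, -0.18, -0.22 and 0.22 in C-G0, a difference of 0.53 ± 0.24 (adjusted p = 0.16). That Zap70 value rested on C-G0 replicate 1, without which it was 0.22. Cd3e differed by -0.39 ± 0.24, with an interval of -0.88 to 0.11.

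In C-G1 vs. C-G0 no member passed the adjusted threshold (0.028% of probes did), and Cd8b and Zap70 had an unadjusted p under 0.05, beside 27.9% of all probes. The median of the members was 0.16, beside 0.02 over all probes. Lists of other cells moved here too, with medians of -1.01 for the erythroid list (5 of 9 genes with an unadjusted p under 0.05), -0.96 for cell division (4 of 6) and 0.62 for the NK list (4 of 9). None of these genes passed the adjusted threshold, and their part was not tested. The NK value was again taken against the same C-G0 arrays, the low C-G0 replicate 1 among them. C-G1 replicate 2 had the highest Cd247 (1.08), Cd3d (0.45), Cd3g (0.77) and Zap70 (0.60) of the 24 arrays. In that rat the per-array median of the erythroid list was -1.38 and of the cell division list -1.32, the lowest of all arrays for both. The cell division median is over 10 genes, untested ones included, of which 3 were well above background on that array.

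**Figure D2:**
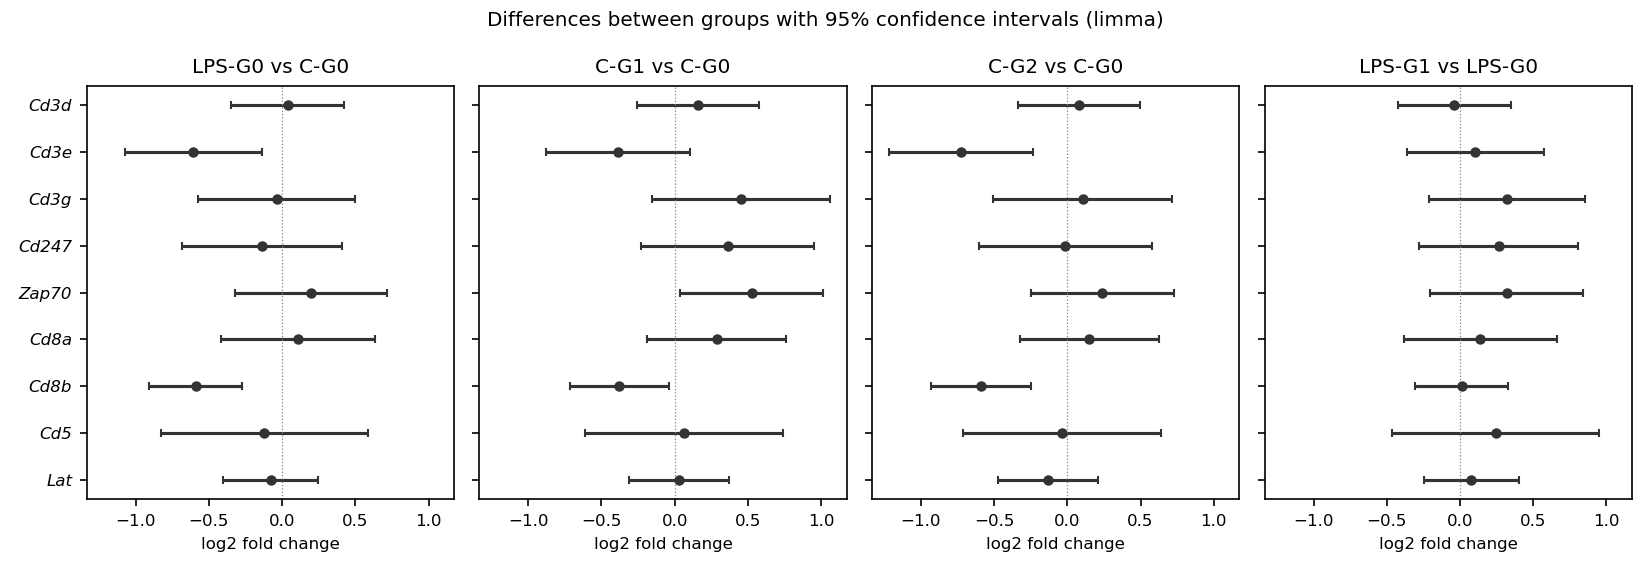
Difference between groups (x axis, log2 fold change) of the 9 tested genes, with points for limma estimates and bars for 95% confidence intervals. In the LPS-G0 vs C-G0 and C-G2 vs C-G0 panels the Cd3e and Cd8b intervals lie below 0, whereas in LPS-G1 vs LPS-G0 every interval spans 0.

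The order of the group means of Cd8b was C-G0 (0.56 ± 0.17), C-G1 (0.19 ± 0.24), LPS-G1 (-0.02 ± 0.11), C-G2 (-0.03 ± 0.30), LPS-G0 (-0.03 ± 0.19) and LPS-G2 (-0.07 ± 0.23), with SD and n = 4 in each. From C-G1 downward, neighbours in this order differed by less than the larger of their SDs. For Cd3e the order was C-G0 (0.46 ± 0.41), C-G1 (0.07 ± 0.52), LPS-G1 (-0.04 ± 0.18), LPS-G0 (-0.15 ± 0.41), LPS-G2 (-0.22 ± 0.23) and C-G2 (-0.27 ± 0.14), and no neighbours were further apart than the larger of their SDs. C-G0 was highest for both genes, but it ranked last for Zap70 and Cd8a.

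The effect of each beta-glucan in challenged rats was addressed against LPS-G0. In LPS-G1 vs. LPS-G0, 8 of 9 members were above 0, with a median difference of 0.14 beside 0.06 over all probes. The largest were Cd3g at 0.32 ± 0.25 and Zap70 at 0.32 ± 0.25 (SE). Cd3g was -0.17, 0.28, -0.28 and 0.19 in LPS-G1 against -0.28, -0.29, -0.03 and -0.67 in LPS-G0, and the groups overlapped. No member passed the adjusted threshold (lowest limma adjusted p = 0.40), although 8.93% of all probes did, and 0 members against 26.9% of probes had an unadjusted p under 0.05. In LPS-G2 vs. LPS-G0 the differences ran from -0.31 (Cd5) to 0.06 (Cd3g), with a median of -0.05. No member and 0% of probes passed the adjusted threshold, and 0 members against 8.23% of probes had an unadjusted p under 0.05. The Cd5 value of LPS-G2 replicate 3 was -1.60, and that probe was not well above background there.

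In LPS-G1 vs. LPS-G2 all 9 tested members had differences above 0, from 0.06 (Cd8b) to 0.55 (Cd5), with a median of 0.20 beside 0.02 over all probes. The Cd5 interval ran from -0.16 to 1.26. No member passed the adjusted threshold (0% of probes), and 0 had an unadjusted p under 0.05, beside 6.68% of probes.

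LPS-G1 vs. C-G1 and LPS-G2 vs. C-G2 gave the effect of LPS within the supplemented diets. In LPS-G1 vs. C-G1 the members' differences ran from -0.23 (Cd247) to 0.06 (Cd5), and in LPS-G2 vs. C-G2 from -0.39 (Cd5) to 0.05 (Cd3e). No member passed the adjusted threshold in either, beside 0.00934% and 0% of probes, and 0 had an unadjusted p under 0.05, beside 2.81% and 1.09%. Cd8b differed by -0.20 ± 0.16 (SE) in the first and -0.05 ± 0.16 in the second.

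Averaged over the 3 diets, the LPS effect on Cd8b was -0.28 ± 0.09 (SE, limma adjusted p = 0.52), with an exact permutation p of 0.0101 for arrangements within diets. It was the only member with an unadjusted p under 0.05, as were 9.61% of probes, and no member passed the adjusted threshold, as did 0.0187% of probes. For Cd8a the effect was -0.01 with an interval of -0.28 to 0.27, and for Cd3e -0.23 with an interval of -0.51 to 0.06. Whether LPS acted differently with a diet was tested as an interaction. The interaction of G2 with LPS was 0.54 ± 0.23 (SE) for Cd8b, with a limma adjusted p of 0.83 and an unadjusted p of 0.0288. The NK list had a median of -0.99 in this interaction, with 9 of 9 genes below 0, 7 of them with an unadjusted p under 0.05 and 0 past the adjusted threshold, and its part was not tested. The same C-G0 arrays enter this interaction, so it does not repeat the NK differences above on other rats. No member passed the adjusted threshold in the G1 or the G2 interaction, as did 0% of probes in each. At an unadjusted p under 0.05 there were 0 members for G1 (3.01% of probes) and 1 for G2 (5.57%).

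Between rats of a group the members did not vary independently. Over 24 arrays, with each value taken as its deviation from its group mean, 35 of 36 pairs of the 9 members had a Pearson's r above 0, with a median of 0.50, and 19 pairs had a permutation p under 0.05 after adjustment over the 36. All values share the reference RNA. How common such r is among pairs of other probes was not tested, so these counts are not shown to be particular to the members. The highest was Cd3d with Cd3g (r = 0.90, rho = 0.86, permutation adjusted p = 0.00036 for each, from the smallest p that 100000 permutations can give). It was 0.86 without the 2 arrays farthest from the median, and 0.94, 0.95 and 0.94 within the 3 slides. Cd247 and Zap70 followed the same rats as Cd3g (r = 0.83 and 0.81).

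Cd3e and Cd8b varied with each other (r = 0.68, rho = 0.72, permutation adjusted p = 0.00204 and 0.0042), with r = 0.60 without the 2 farthest arrays and 0.78, 0.78 and 0.75 within slides. The coreceptor chains Cd8a and Cd8b, whose products pair on cytotoxic T cells, showed r = 0.11 (rho = 0.23, permutation adjusted p = 0.65 and 0.35), with 0.47 without the 2 farthest arrays and 0.04, 0.59 and -0.26 within slides. Cd8a instead ran with Cd5 (r = 0.72, rho = 0.54, permutation adjusted p = 0.012 and 0.04), with r = 0.53 without the 2 farthest arrays and 0.60, 0.65 and 0.91 within slides.

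**Figure D3:**
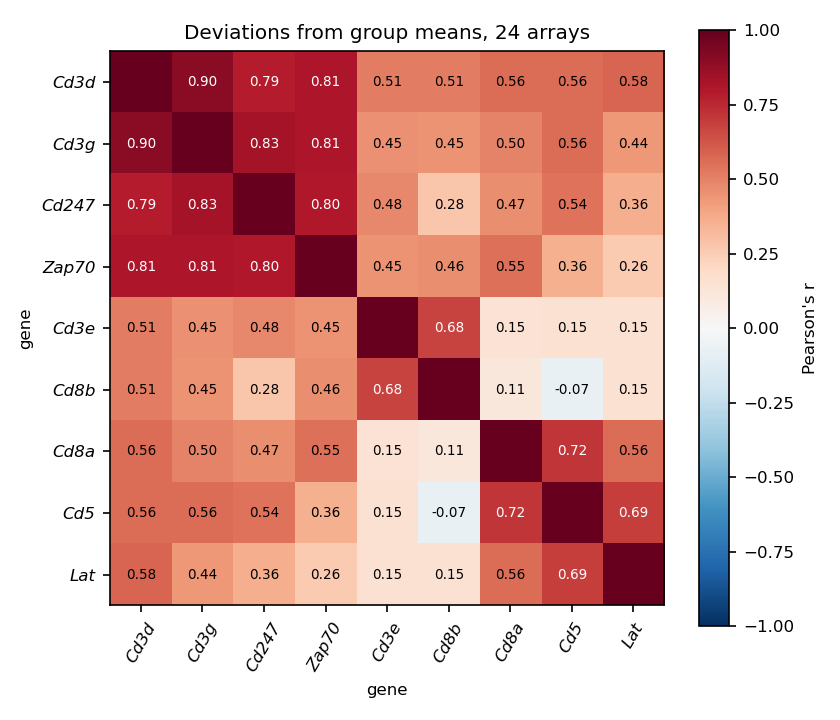
Pearson's r between pairs of genes over 24 arrays (colour and number), from deviations of the log2 ratio from the group mean. Cd3d, Cd3g, Cd247 and Zap70 form a block with r from 0.79 to 0.90, and Cd8a with Cd8b has r = 0.11.

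Cd3g and Cd3d lie head to head, and their promoters are shown for that reason. In the GRCr8 assembly of RefSeq their starts are 1601 bases apart. Each sequence below runs from 250 bases before to 50 bases after the start, with the core of ETS factor sites (GGAA, either strand) in capitals. The Cd3g window is chr8:54183869-54184168 (minus strand) and the Cd3d window chr8:54185269-54185568 (plus strand).
Cd3g: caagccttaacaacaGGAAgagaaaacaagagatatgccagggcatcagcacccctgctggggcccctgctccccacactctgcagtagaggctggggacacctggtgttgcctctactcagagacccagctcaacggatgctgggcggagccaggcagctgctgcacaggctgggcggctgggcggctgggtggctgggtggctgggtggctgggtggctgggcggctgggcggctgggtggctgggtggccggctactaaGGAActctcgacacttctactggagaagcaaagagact
Cd3d: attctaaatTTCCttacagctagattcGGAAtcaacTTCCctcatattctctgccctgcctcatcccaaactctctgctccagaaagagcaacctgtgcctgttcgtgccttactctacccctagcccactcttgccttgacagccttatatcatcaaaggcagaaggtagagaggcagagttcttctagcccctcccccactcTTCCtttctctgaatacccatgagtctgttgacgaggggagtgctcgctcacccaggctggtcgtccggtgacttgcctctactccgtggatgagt
GGAA was found 2 times for Cd3g and 4 times for Cd3d, and 95.8% of 27457 RefSeq promoters of this length hold it. Promoters were matched for 8 of 10 members, and all 8 hold GGAA. The E-box CAGCTG (both strands) was in 3 of 8, which were Cd3g, Cd5 and Lat, beside 15.1% of all promoters, and the RUNX motif TGTGGT in 1 of 8 (Lat), beside 16.9%.

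Likeness was taken to the mean of all 10 members over 24 arrays, the dim Cd4 among them, and likeness without Cd4 was not run. Of 6494 candidates outside the members, the 6 most alike included the ribosomal protein gene Rpl5 (r = 0.87), its relative Rpl5l1 (0.86) and Smco4 (0.87). The others were 3 transcripts named only by identifier (0.87 to 0.90). Within groups the r of Rpl5 was 0.92.

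The wider T cell receptor pathway was followed through 76 listed genes, of which 66 were on the array and 47 were tested in the challenged groups. In LPS-G1 vs. LPS-G0, 4 of the 47 fell and 0 rose, a share close to the 8.93% called over all probes, so the count is no result about the pathway. They were Pdcd1 (the inhibitory receptor PD-1), Pag1 (a membrane adaptor that recruits the inhibitory kinase Csk), Sos1 (a Ras exchange factor) and Grap2 (the adaptor Gads, which links LAT to SLP-76). Pdcd1 was 0.36, 0.35, 0.35 and 0.58 in LPS-G0 and -0.20, -0.70, -0.33 and -0.39 in LPS-G1. It fell by 0.81 ± 0.22 on the log2 scale (SE, limma adjusted p = 0.034).

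Pag1 fell by 0.59 ± 0.16 (limma adjusted p = 0.035), Sos1 by 0.58 ± 0.15 (adjusted p = 0.029) and Grap2 by 0.58 ± 0.16 (adjusted p = 0.039). The groups did not overlap for any of these genes, as for 21.9% of all probes. Sos1 has another, dimmer probe, which differed by 0.15 ± 0.24 (limma adjusted p = 0.70), so the probes of this gene disagreed. The median of the 47 genes was 0.21 beside 0.06 over all probes, with 34 above 0. None of the 12 proximal kinases and phosphatases, among them Lck and Fyn, was called, with a median of 0.22. The NK list had a median of -0.12 there, with Klrk1 called lower, and the erythroid list -0.32, with Klf1 and Epb42 called lower. For the cell division list it was -0.57, with Tpx2 and Ube2c called lower. Over all probes 8.93% were called. The paper reports Ube2c as down-regulated in this comparison and took Tpx2 from it for RT-PCR, so those calls are not an independent test. The part of those cells was not tested. Outside this comparison, C-G1 replicate 2 had the lowest Pdcd1 (-1.37), Sos1 (-1.41) and Grap2 (-1.48) of any array, but not the lowest Pag1 (-0.08). The erythroid (-1.38) and cell division (-1.32) list medians were also lowest in that array. Its Cd247, Cd3d, Cd3g and Zap70 were the highest of any array. Whether the called genes ran with those lists or against the members over the arrays was not tested.

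These 4 calls were not stable: 0 remained with slide as a block, with all 24 arrays in 1 fit, in Cy3 alone, with no filter on dim probes, without the arrays of conflicting labels, without LPS-G0 replicate 1, 2 or 4, or without LPS-G1 replicate 2, 3 or 4. Each of the 4 genes kept its sign under the alternatives run, which says little, since they were picked as called and the refits reuse most arrays. Elsewhere 0 pathway genes were called. In LPS-G0 vs. C-G0 the lowest unadjusted p were those of Sos1 (0.44 ± 0.15) and Grap2 (0.48 ± 0.16), limma adjusted p = 0.22 for each. The dimmer Sos1 probe went the other way there, by -0.25 ± 0.24 (SE, limma adjusted p = 0.66). Members of the transcription factor and homing list were below 0 in that comparison in 10 of 10 tested, with a median of -0.31 and 0 called. In C-G2 vs. C-G0 the interleukin receptor chain Il7r differed by -0.97 ± 0.31 and the T helper factor Tbx21 by -0.64 ± 0.24 (limma adjusted p = 0.22 and 0.27). In the LPS effect over the diets the costimulatory receptor Icos was at -0.64 ± 0.17, while Pdcd1 was at 0.34 ± 0.14 (limma adjusted p = 0.52 for each).

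**Figure D4:**
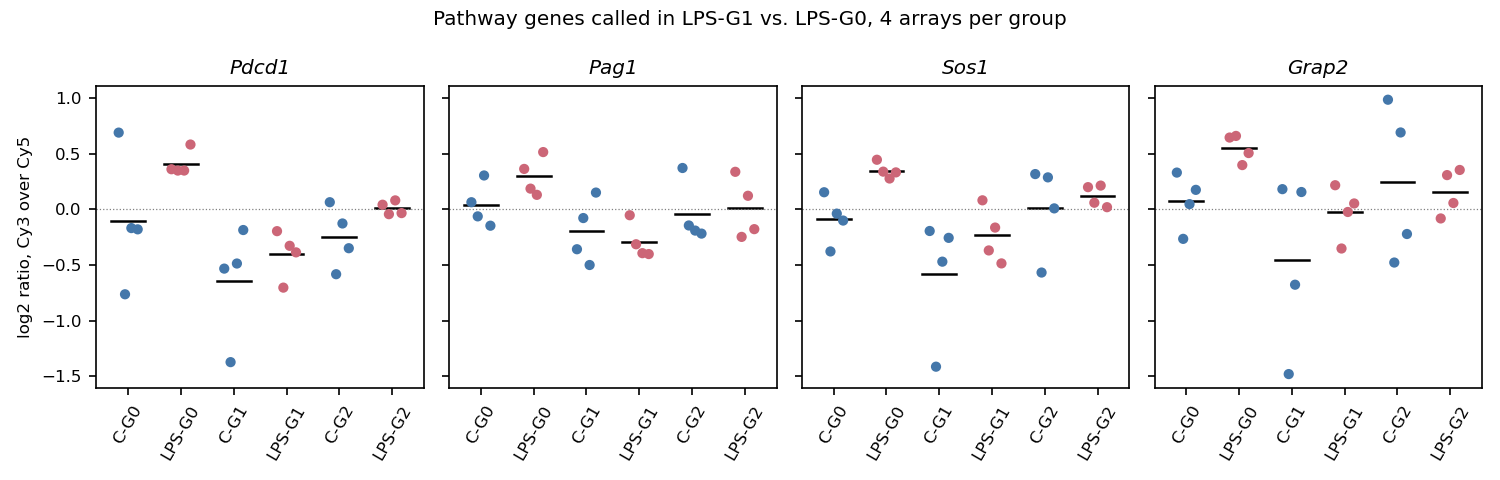
Log2 ratio (Cy3 over Cy5) of Pdcd1, Pag1, Sos1 and Grap2 in each array by group, from the brightest probe of each gene. Blue points are saline, red points LPS and black bars group means. The 4 LPS-G0 arrays lie above the 4 LPS-G1 arrays for each gene, and the saline groups spread over both, Pdcd1 in C-G0 from -0.76 to 0.69.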

How the data were processed

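Per the labels and the study's methods, whole-blood RNA of each rat and a common reference were labelled with different dyes and hybridised to Agilent SurePrint G3 Rat 8x60K arrays. The authors scanned the arrays and deposited Agilent Feature Extraction output, in which the software had subtracted background and normalized the dyes. The submitters' notes name version 10.7.3.1, and the file headers 10.10.1.1. The deposited LogRatio (log10 of red over green) was turned in sign and converted to log2. The deposited processed Cy3 and Cy5 intensity gave the signals, and the well-above-background and saturation flags gave detection. The whole-series value table held the same 1511424 values and was not used separately. All 24 files of scanner values were used.

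Spots of a probe were averaged without those flagged as outliers, and control spots were left out. A probe was taken as well above background on an array when at least 0.5 of its spots were. Probes were tested when 1 or more groups of the fit had all 4 arrays meeting this in Cy3, which left 10313 probes for 16 arrays and 10708 for 24. Differences were fitted across all probes with limma 3.58.1 in R 4.3.3 (lmFit, eBayes), with Benjamini-Hochberg adjusted p under 0.05 as the call. The 4 comparisons among the challenged groups and C-G0 used 16 arrays, and the others used 24. Single values were also tested with exact two-sided permutation tests (70 arrangements, or 343000 within diets). Nothing in the labels says that the rats of a group were of separate litters, and p-values measure the spread between rats on single arrays. The number of arrays limits the precision. On simulated data for LPS-G0 vs. C-G0 (10284 probes) the fit found 60 of 100 probes changed by 1 on the log2 scale and 95 of 100 changed by 2. The simulated noise was independent between probes, whereas probes of these arrays deviated together. Changes smaller than 1, the size of the member differences, were not simulated. These shares therefore do not give the power for the members.

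The members and the gene lists were chosen with earlier results of these data known. Pathway genes were named as the called genes with the largest difference, at most 4 per comparison, or otherwise the 2 with the smallest p, always from the brightest probe of a gene. The alike genes were the 6 with the highest Pearson's r. Of 9 listed T cell receptor antigen-binding chain genes, 1 was found on the array by name and 0 were tested. Alternatives were a replicate or slide block, other arrays, background correction, filters, weights, call rules (also a 1-way analysis of variance followed by Tukey's test, after the methods) and leaving out each array. Probe positions are in rn4, and promoters in GRCr8 from RefSeq.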

Additional observations from a re-analysis of the deposited data

Results flagged for a closer look

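Of 60 groups of 4 arrays (10 genes in 6 groups), 2 held an array far from the other 3, with a gap above Dixon's critical value, and chance flags about 1 group in 20. Cd247 in C-G1 replicate 2 was at a log2 ratio of 1.08, while the other C-G1 rats lay between 0.11 and 0.27. Cd3d in LPS-G0 replicate 4, an array with conflicting labels, was at -0.28, while the other LPS-G0 rats lay between -0.04 and -0.03.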

How the results depend on the processing

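The count of called members was 0 in all 11 comparisons and stayed 0 in 376 of 383 refits or other call rules. In LPS-G0 vs. C-G0 it was 2 (Cd3e and Cd8b) with array weights and ranged from 0 to 2 when each array was left out, the 2 being without C-G0 replicate 1. At an unadjusted p it was 2 in LPS-G0 vs. C-G0, C-G1 vs. C-G0 and C-G2 vs. C-G0, and 1 in the LPS effect over the diets and in the G2 diet by LPS interaction. The median of the members, at most 0.20 in size, changed sign in 22 of 357 alternatives. When each array was left out it ran from -0.32 (without C-G0 replicate 1) to 0.05 in LPS-G0 vs. C-G0 and from -0.18 to 0.16 in C-G2 vs. C-G0. All these moves were under 0.27, its SD between arrays of a group, which is larger than any of the medians and so says nothing about stability. The 8 single differences with an unadjusted p under 0.05 kept their sign throughout, and 161 of 3202 values changed sign, all of them of other differences. Those 8 were picked for lying far from 0 and the refits reuse most of the same arrays. Their kept signs therefore say little about stability. The pathway genes called in LPS-G1 vs. LPS-G0 (4) became 0 with slide as a block, with all 24 arrays in 1 fit, without the arrays of conflicting labels, in Cy3 alone and with no filter on dim probes, 2 with probes above background on all arrays, and ranged from 0 to 5 when each array was left out. Over all probes that comparison ranged from 0 to 2900 calls. The cause was not tested.

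The replicate numbers are shared by the groups, and same-numbered arrays of different groups deviated together only on average (mean r = 0.11, against -0.04 for other numbers), with r from -0.31 to 0.54 and below 0.1 in some pairs of every 2 groups. By pair of groups, the mean for same numbers ran from -0.09 (LPS-G0 with C-G2) to 0.33 (C-G0 with C-G2). Arrays on 1 slide had a mean r of 0.11 too, against -0.05 across slides. The numbers were not taken to pair the rats. With the replicate number as a block, 0 members were called in every comparison, and 5 pathway genes in LPS-G1 vs. LPS-G0. Over all probes that block raised the calls from 3 to 600 in C-G1 vs. C-G0 and from 3 to 43 in C-G2 vs. C-G0. The mean over probes per member was not run, since each has 1 probe. Dim signal limits Cd4 and Cd5.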
